A study of Mus musculus with 3 samples.

Results

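The genes that copy DNA and supply its building blocks were read in LLC/luc cells before and after selection for growth in bone. The set holds 44 genes of 19057 with a named probe, found by symbol on the arrays, and they fall into 7 roles: origin licensing with 12 genes, helicase activation with 6, the sliding clamp and its loader with 5, DNA polymerases and primase with 7, flap removal, ligation and single-strand binding with 4, nucleotide synthesis with 5 and S-phase regulators with 5. LLC/luc is a Lewis lung carcinoma line on a C57BL/6 background that carries the luciferase gene. LLC/luc P is the parental line, LLC/luc BM1st was cultured from bone lesions of mice that had received parental cells by injection into the heart, and LLC/luc BM2nd came from bone lesions after BM1st cells were injected in the same way. All 3 lines were grown in culture in the same medium before RNA was taken. Total RNA of each line was labelled with biotin and hybridised to 1 Illumina mouse array, so 3 arrays were compared. Each line is 1 culture on 1 array, no replicate stands behind any value, and neither a p-value nor a replicate error can be given. The label field for cell type calls the parental cells osteotropic too, whereas their title and subtype name them parental, and the title was followed.

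A cell copies its genome once in each division cycle. The origin recognition complex marks the start sites, and CDC6 and CDT1 load the ring-shaped MCM helicase there during G1. Kinases then recruit CDC45 and the GINS complex, which turn the ring into a moving helicase at the start of S phase, and polymerases follow it on a clamp that the RFC complex loads. Deoxynucleotides are made by ribonucleotide reductase and by the thymidylate enzymes, and many genes of this set are known targets of E2F transcription factors, whose activity peaks at the entry to S phase. In RNA taken from a whole culture, fewer cells in S phase and less RNA per cell cannot be told apart.

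The values deposited are linear intensities with the background left in. Each gene was read from its brightest probe, the 1 whose log2 intensity averaged highest over the 3 arrays. Background was placed at the level that 95% of 1504 probes for olfactory and vomeronasal receptors did not pass, and this gave 109 in P, 109.8 in BM1st and 107 in BM2nd cells. A gene was tested in a comparison if either of its arrays passed background, and it was counted as lower or higher when its intensities differed by more than 2-fold, a log2 ratio beyond 1 in absolute value. Since the background was not subtracted, ratios of dim genes are compressed towards 0. Probes of different genes differ in brightness for reasons of sequence, so levels of 1 gene were not compared with those of another. Sums over a list are weighted by its bright probes, and they include the background of every probe. The receptor probes had a median of 92.8 in P, 92.3 in BM1st and 91.9 in BM2nd cells. Over all genes the log2 ratios had a robust SD of 0.31 for BM1st/P, 0.30 for BM2nd/P and 0.33 for BM2nd/BM1st, and the receptor probes had an SD of 0.12 in each comparison. The genes of the set had 88 probes, with 22 genes on 1 probe and up to 5 probes for Tyms. Above background lay 40 of the 44 in P, 38 in BM1st and 41 in BM2nd cells.

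Start regions of 5 genes are shown because these had the lowest BM1st/P ratios of the genes with an entry, taking at most 1 gene per role. Each sequence runs 5′ to 3′ along the gene, from 250 bases before the annotated start to 50 after it, and comes from RefSeq on the mouse build GRCm38.p6. Capitals mark any of the 4 E2F words searched on both strands, TTTCCCGC, TTTCGCGC, TTTGCCGC and TTTGGCGC, and words that overlap are run together. Uhrf1 has 2 entries and Lig1 has 3, and the entry with the most E2F words is given.
Tyms, chr5:30073576-30073875, reverse strand: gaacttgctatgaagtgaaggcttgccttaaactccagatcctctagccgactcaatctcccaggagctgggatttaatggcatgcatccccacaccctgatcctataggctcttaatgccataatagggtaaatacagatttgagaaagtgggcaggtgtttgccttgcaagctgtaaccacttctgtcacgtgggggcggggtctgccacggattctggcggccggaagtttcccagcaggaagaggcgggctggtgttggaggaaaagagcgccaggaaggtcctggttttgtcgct
Mcm5, chr8:75109259-75109558, forward strand: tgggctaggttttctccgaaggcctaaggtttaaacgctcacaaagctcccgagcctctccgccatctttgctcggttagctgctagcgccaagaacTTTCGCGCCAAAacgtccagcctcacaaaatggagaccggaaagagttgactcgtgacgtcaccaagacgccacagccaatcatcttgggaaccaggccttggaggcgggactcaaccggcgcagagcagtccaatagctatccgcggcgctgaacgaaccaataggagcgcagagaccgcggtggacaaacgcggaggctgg
Mcm10, chr2:5012742-5013041, reverse strand: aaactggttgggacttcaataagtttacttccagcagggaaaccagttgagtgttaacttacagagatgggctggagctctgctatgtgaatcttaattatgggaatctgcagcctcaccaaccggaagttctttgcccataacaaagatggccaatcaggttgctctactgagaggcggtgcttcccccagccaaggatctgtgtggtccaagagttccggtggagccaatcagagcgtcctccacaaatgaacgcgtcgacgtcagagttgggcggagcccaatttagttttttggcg
Uhrf1, chr17:56304063-56304362, forward strand: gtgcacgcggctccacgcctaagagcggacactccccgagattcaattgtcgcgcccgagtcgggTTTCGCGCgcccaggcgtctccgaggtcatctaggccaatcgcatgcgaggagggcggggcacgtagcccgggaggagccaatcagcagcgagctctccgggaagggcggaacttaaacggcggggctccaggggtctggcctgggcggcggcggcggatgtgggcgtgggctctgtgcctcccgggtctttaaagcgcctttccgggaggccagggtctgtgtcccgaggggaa
Lig1, chr7:13278576-13278875, forward strand: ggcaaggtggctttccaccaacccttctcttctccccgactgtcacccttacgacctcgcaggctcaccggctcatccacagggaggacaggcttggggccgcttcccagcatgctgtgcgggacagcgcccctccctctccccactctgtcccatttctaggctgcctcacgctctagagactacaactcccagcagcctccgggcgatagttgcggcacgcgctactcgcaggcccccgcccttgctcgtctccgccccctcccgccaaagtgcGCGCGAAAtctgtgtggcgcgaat

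Mcm5 carries 2 E2F words that overlap, 1 on each strand, in the stretch from -153 to -142, counted in bases from the start. In Uhrf1 the word lies on the forward strand from -185 to -178, and in Lig1 on the reverse strand from 27 to 34 after the start. Tyms and Mcm10 hold none of the 4 words in these 300 bases. Of the 44 genes 36 had an entry, some with more than 1, which made 44 promoters in all. The 8 without an entry are Mcm4, Gmnn, Gins1, Gins2, Gins4, Rfc2, Pole and Ccne2. An E2F word was found in 15 of the 36 genes, or 41.7%, against 3.3% of 17492 protein-coding genes, and in 34.1% of the 44 promoters against 2.3% of all 32851 promoters. The 15 genes were Mcm3, Mcm5, Mcm6, Mcm7, Orc1, Cdc6, Cdt1, Gins3, Rfc3, Pola1, Pold1, Pole2, Lig1, E2f2 and Uhrf1. They held 21 words, which make 19 sites once overlapping words are joined, and 13 of these sites begin between -100 and 50. By word, TTTGGCGC occurred 8 times, TTTCGCGC 7 times and TTTCCCGC 6 times, and TTTGCCGC did not occur. CCAAT, the word of the NF-Y factor, was present in 61.1% of the genes and in 42.3% of protein-coding genes. TTTGAA, an element known from genes of the G2 and M phases, was present in 16.7% of the genes and in 18.5% of protein-coding genes. The median GC content of these promoters was 57.5%, against 56.3% for protein-coding genes. The matches describe letters and not bound sites. Words of the E2F kind overlapped each other in Mcm5 and Mcm6, and an E2F word shared 1 base with CCAAT in Mcm7.

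**Figure D1:**
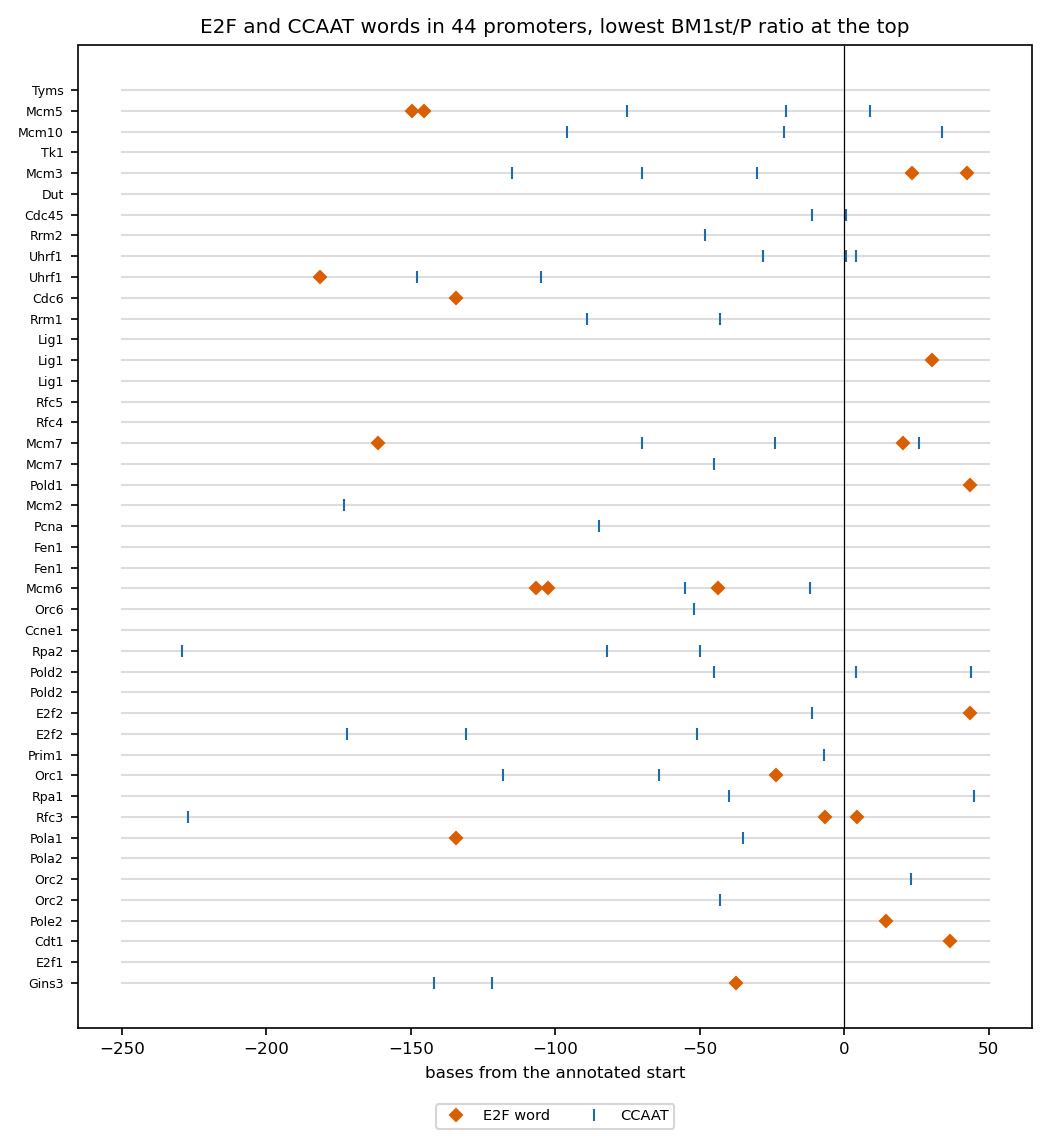
Positions of E2F words (orange diamonds) and CCAAT words (blue ticks) in the 44 promoters, each drawn as a grey line from 250 bases before the annotated start to 50 after it, with the gene of the lowest log2 BM1st/P ratio at the top. The 15 promoters with an E2F word stand both near the top (Mcm5, Mcm3) and at the bottom (Gins3, Cdt1).

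The first comparison asked how the line from the first round of bone selection differed from the cells that were injected. Replication and nucleotide synthesis genes were broadly lower in BM1st than in P cells. Of 40 genes above background on either array, 13 were lower by more than 2-fold, which is 32.5%, where 1.79% of all 10377 genes tested were lower. None of the 40 was higher by more than 2-fold, against 2.04% of all genes. A log2 ratio below 0 was seen in 36 of the 40, against 50.9% of all genes, and above 0 in 4, against 49% of all genes. Prim1 and Ccne1, among the 36, passed background in P and not in BM1st cells, so the filter favoured that sign. The median was -0.75, with quartiles of -1.10 and -0.23, where the median over all genes was -0.01. The 13 were Mcm3, Mcm5 and Cdc6 of origin licensing, Mcm10 and Cdc45 of helicase activation, Rfc5 of the clamp loader, the DNA ligase Lig1, Uhrf1, and Rrm1, Rrm2, Tyms, Tk1 and Dut, which are all 5 nucleotide synthesis genes of the set on their brightest probes. Of these 5, Rrm1 was within 2-fold with reference genes as the centre, Tk1 with the mean over probes, and Rrm1, Tyms and Tk1 on the second probe. The threshold ran between Rfc5 at -1.03 and Gins1 at -0.98. The 4 above 0 were Gins3, E2f1, Cdt1 and Orc2, the last with a ratio of 0.00 after rounding. After the median of the receptor probes was subtracted from each array, 8 more genes of the set were past 2-fold. Of these, Mcm7, Gins1, Pcna, Rfc4, Pole, Ccne1 and Ccne2 were lower and Gins3 higher in BM1st than in P cells. The same subtraction raised the calls over all 10377 genes tested from 186 to 832 lower and from 212 to 849 higher.

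**Figure D2:**
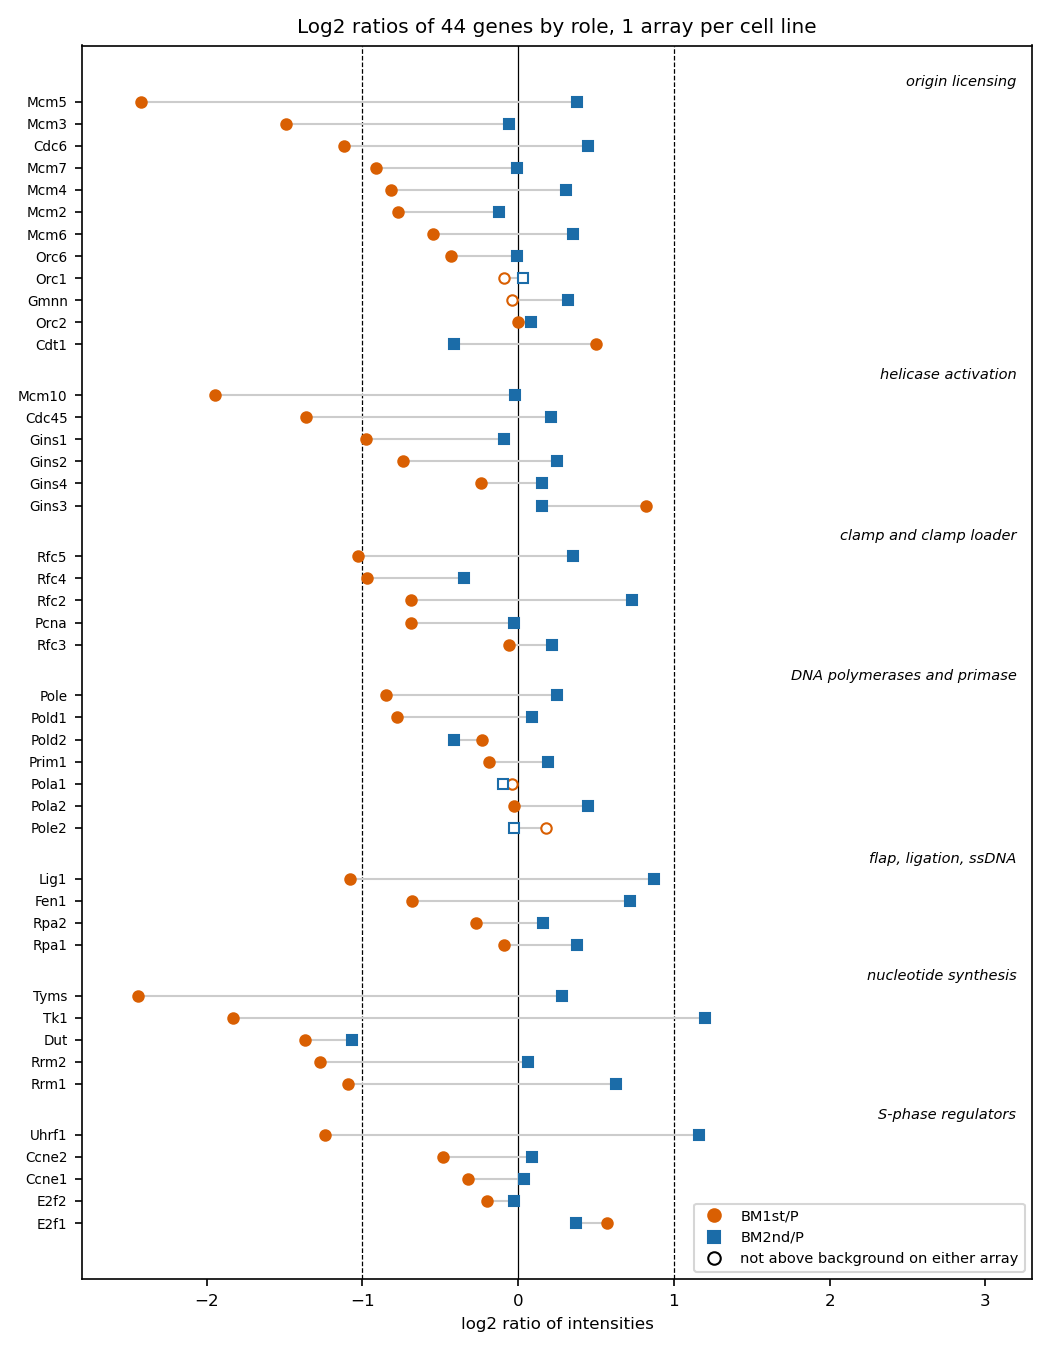
Log2 ratio of intensities for each of the 44 genes, grouped by role and sorted by the BM1st/P ratio, with BM1st/P as orange circles and BM2nd/P as blue squares, 1 array per line, and dashed lines at the 2-fold threshold. Open symbols mark genes not above background on either array. The circles reach -2.44 in Tyms, whereas 3 squares lie beyond the threshold (Dut, Tk1 and Uhrf1).

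Nucleotide synthesis had the lowest median of the 7 roles in BM1st/P, at -1.37, or -2.45 after background subtraction. Tyms, the thymidylate synthase that makes dTMP from dUMP, had an intensity of 1147 in P, 212 in BM1st and 1394 in BM2nd cells. It was 5.42 times lower in BM1st than in P cells, which ranks 5 from the lowest of all genes tested, and its BM2nd level was slightly above that of P. Tk1, the cytosolic thymidine kinase that salvages thymidine, read 755 in P, 213 in BM1st and 1731 in BM2nd cells. It was 3.54 times lower in BM1st and 2.29-fold higher in BM2nd than in P cells. Dut, which breaks down dUTP and so yields the dUMP that thymidylate synthase uses, read 509.8 in P, 197 in BM1st and 243 in BM2nd cells. Dut was low in both bone lines, 2.59 times lower in BM1st and 2.10 times lower in BM2nd than in P cells, which no other gene of the set was. Both subunits of ribonucleotide reductase, the enzyme that turns ribonucleotides into deoxyribonucleotides, were lower in BM1st. Rrm1, the large subunit, gave 669 in P, 314 in BM1st and 1036 in BM2nd cells, and Rrm2, the small subunit, gave 309 in P, 128 in BM1st and 323 in BM2nd cells. The log2 BM1st/P ratio was -1.09 for Rrm1 and -1.27 for Rrm2. The BM1st value of Rrm2 was close to background, and its ratio was -2.59 after background subtraction. In BM2nd cells Rrm1 stood at 0.63 and Rrm2 at 0.06 relative to P.

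Origin licensing had a median log2 BM1st/P ratio of -0.79, with 3 of 10 genes lower by more than 2-fold. All of the helicase subunits Mcm2 to Mcm7 lay below P in BM1st cells, from -2.42 for Mcm5 to -0.55 for Mcm6, with a median of -0.87. Their summed intensity was 11027 in P, 5249 in BM1st and 13250 in BM2nd cells. Mcm5 read 2857 in P, 535 in BM1st and 3728 in BM2nd cells, and its ratio of -2.42 ranks 7 from the lowest of all genes. Mcm3 read 676 in P, 239.9 in BM1st and 646 in BM2nd cells, a log2 BM1st/P ratio of -1.49. The other 4 subunits were lower in BM1st by less than 2-fold. Mcm4 gave 4016 in P, 2274 in BM1st and 4967 in BM2nd cells, and Mcm7 gave 527 in P, 279.7 in BM1st and 524 in BM2nd cells. Mcm2 had 1050 in P, 618 in BM1st and 964 in BM2nd cells, and Mcm6 had 1902 in P, 1302 in BM1st and 2420 in BM2nd cells.

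Cdc6, which brings the helicase to the origin, read 259.8 in P, 119.9 in BM1st and 354 in BM2nd cells. With the background at 109.8, the BM1st value was only just above it, and the log2 ratio was -1.12 as measured and -2.60 after the median of the receptor probes was subtracted. Cdt1, its partner in loading, ran the other way, with 3980 in P, 5609 in BM1st and 2995 in BM2nd cells. It was 1.41-fold higher in BM1st than in P and 1.87 times lower in BM2nd than in BM1st, within 2-fold in both. Of the origin recognition complex, Orc6 read 2548 in P, 1889 in BM1st and 2528 in BM2nd cells, and Orc2 was dim and level at 117 in P, 118 in BM1st and 124 in BM2nd cells. Orc1, the largest subunit, read 104 in P, 97.7 in BM1st and 106 in BM2nd cells and was not above background on any array. Gmnn, which encodes the CDT1 inhibitor geminin, was above background only in BM2nd cells, at 87.6 in P, 85.4 in BM1st and 109 in BM2nd cells. For these last 2 genes no fold is given.

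Helicase activation had a median log2 BM1st/P ratio of -0.86, with 2 of 6 genes lower by more than 2-fold. Mcm10, which helps the loaded helicase start, had 880.5 in P, 228 in BM1st and 866 in BM2nd cells. It was 3.86 times lower in BM1st than in P, and its log2 BM2nd/P ratio was -0.02. Cdc45, a subunit of the active helicase, had 536 in P, 209 in BM1st and 618 in BM2nd cells, a log2 BM1st/P ratio of -1.36. The 4 GINS subunits, which act as 1 complex, did not share a direction. Gins1 read 503 in P, 256 in BM1st and 473 in BM2nd cells, and Gins2 read 482 in P, 288 in BM1st and 575 in BM2nd cells. Gins4 was nearly level at 2398 in P, 2036 in BM1st and 2663 in BM2nd cells. Gins3 had the highest BM1st/P ratio of the whole set, with 160.2 in P, 283 in BM1st and 177 in BM2nd cells, 1.77-fold higher in BM1st than in P as measured.

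Pcna, the sliding clamp, read 335 in P, 207 in BM1st and 329 in BM2nd cells, a log2 BM1st/P ratio of -0.69. The clamp loader subunits lay below P by unlike amounts. Rfc5 had 485 in P, 238 in BM1st and 619.9 in BM2nd cells, a log2 BM1st/P ratio of -1.03. Rfc4 had 1005 in P, 515 in BM1st and 789 in BM2nd cells, a log2 BM1st/P ratio of -0.97, and unlike the other loader subunits it also stayed below P in BM2nd cells. Rfc2 had 1429 in P, 883 in BM1st and 2375 in BM2nd cells, so that its BM2nd level was 1.66-fold that of P. Rfc3 was dim, at 143 in P, 137 in BM1st and 166 in BM2nd cells. The median of the 5 genes was -0.69 in BM1st/P.

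Polymerase and primase genes had a median log2 BM1st/P ratio of -0.23 as measured and -0.85 after background subtraction, and none of 5 was past 2-fold as measured. Pole, the catalytic subunit of the leading-strand polymerase epsilon, read 214 in P, 119 in BM1st and 254 in BM2nd cells, a log2 BM1st/P ratio of -0.85 as measured and -2.19 after background subtraction, with a BM1st value just above background. Pold1, the catalytic subunit of the lagging-strand polymerase delta, read 1461 in P, 854 in BM1st and 1553 in BM2nd cells, a ratio of -0.78, which stayed within 2-fold at -0.85 after subtraction. The accessory subunit Pold2 did not follow Pold1, with 2676 in P, 2280 in BM1st and 2012 in BM2nd cells. Pola2, a subunit of the polymerase that begins each strand, was level between BM1st and P at 555 and 566, and had 774 in BM2nd cells. Prim1, the primase subunit, was above background at 125 in P and 142 in BM2nd cells and not above it at 109 in BM1st cells, so it was at least 1.14-fold lower in BM1st than in P, taking background as the BM1st level. Pola1 at 93.1 in P, 90.5 in BM1st and 86.8 in BM2nd cells and Pole2 at 88.8 in P, 100.3 in BM1st and 86.8 in BM2nd cells were not above background on any array.

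Lig1, the ligase that seals the joined fragments of the lagging strand, read 683 in P, 323 in BM1st and 1251 in BM2nd cells. This was 2.12 times lower in BM1st and 1.83-fold higher in BM2nd than in P cells. Fen1, the nuclease that trims the flaps before ligation, had the same shape with 902 in P, 563 in BM1st and 1491 in BM2nd cells. The single-strand binding subunits moved little between BM1st and P. Rpa2 read 229 in P, 190.0 in BM1st and 255 in BM2nd cells, and Rpa1 read 3913 in P, 3667 in BM1st and 5079 in BM2nd cells. All 4 genes of this role stood highest in BM2nd cells.

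Among the S-phase regulators, Uhrf1, which helps copy DNA methylation onto the new strand, read 1904 in P, 808 in BM1st and 4245 in BM2nd cells. It was 2.36 times lower in BM1st and 2.23-fold higher in BM2nd than in P cells. E2f1, an activating E2F factor, read 706 in P, 1049 in BM1st and 915 in BM2nd cells, so it was above P in both bone lines, at 0.57 in BM1st and 0.37 in BM2nd on the log2 scale. E2f2 read 171 in P, 149 in BM1st and 167 in BM2nd cells. Both cyclin E genes, whose proteins drive the entry into S phase, lay close to background. Ccne2 had 169.5 in P, 122 in BM1st and 181 in BM2nd cells, and Ccne1 had 135 in P, 109 in BM1st and 139 in BM2nd cells and was not above background in BM1st cells. After background subtraction the log2 BM1st/P ratio was -1.38 for both.

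**Figure D3:**
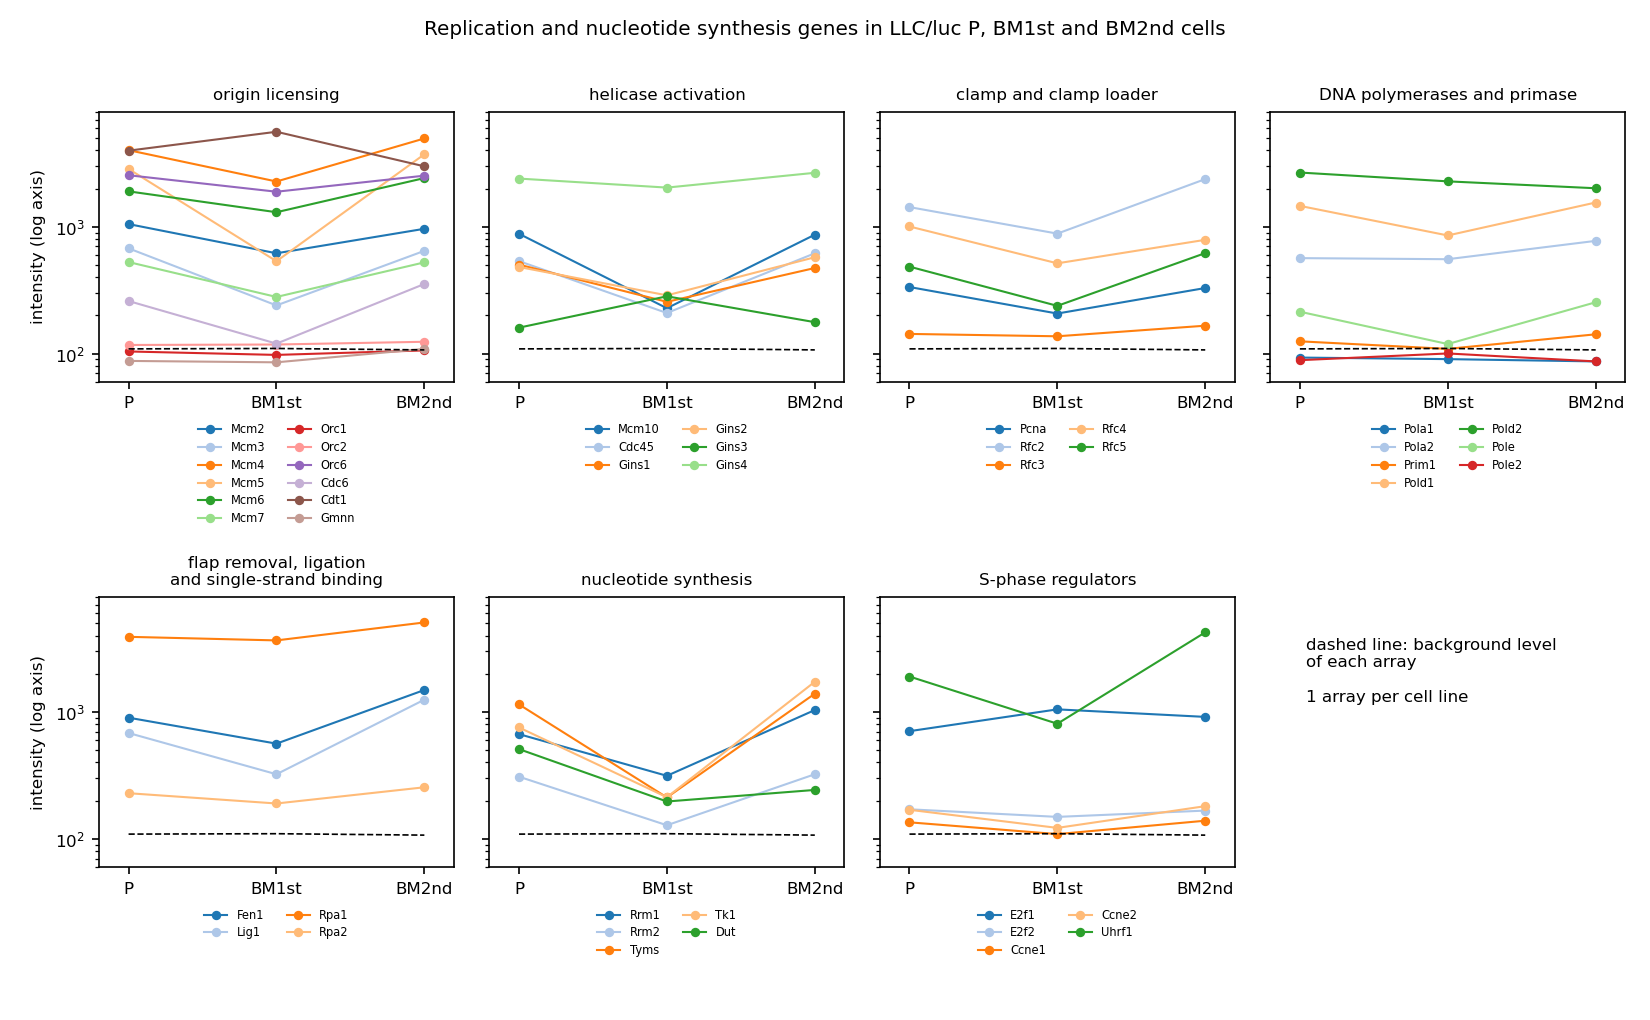
Intensity on a log axis of each gene on the P, BM1st and BM2nd arrays, 1 panel per role, 1 point per array, with a dashed line at background. Most lines dip at BM1st, by more than 2-fold in all 5 nucleotide synthesis genes on these probes, whereas Cdt1, Gins3 and E2f1 peak there. Heights of different genes are not comparable.

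The second comparison asked how the line from the second round of selection differed from the parental cells. The set as a whole was close to P, with a median log2 BM2nd/P ratio of 0.19 against 0.01 over all genes. Of 41 genes tested, Tk1 and Uhrf1 were higher by more than 2-fold, where 1.83% of all 10579 genes were higher, and Dut was lower, where 1.53% of all genes were lower. In shares, 4.9% of the 41 were higher and 2.4% lower. A ratio above 0 was seen in 29 of the 41, against 50.9% of all genes, and below 0 in 12, against 49% of all genes. Gmnn is among the 29 and passed background in BM2nd and not in P cells, so the filter favoured that sign. Beside Uhrf1 at 1.16, the next highest was Lig1 at 0.87, and above Dut at -1.07 the next lowest was Pold2 at -0.41. The role medians ran from 0.08 for origin licensing to 0.55 for flap removal, ligation and single-strand binding, with 0.28 for nucleotide synthesis. Mcm2 to Mcm7 had a median of 0.15, from -0.12 for Mcm2 to 0.38 for Mcm5.

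The third comparison set the second selected line against the first. It shares its arrays with the comparisons above, as these share the P array with each other, so the values are given side by side and are not separate evidence. Of 41 genes tested, 16 were higher in BM2nd than in BM1st by more than 2-fold, or 39.0%, against 3.01% of all 10562 genes, and none was lower, against 1.78% of all genes. The log2 ratio was above 0 in 37 of the 41, against 48.7% of all genes, and below 0 in 4, against 51.2% of all genes. Gmnn, Prim1 and Ccne1, among the 37, passed background in BM2nd and not in BM1st cells, so the filter favoured that sign. The median was 0.86 against -0.01 over all genes. Tk1 had the highest ratio of the set at 3.02, 8.12-fold, which ranks 7 from the highest of all genes. Mcm5 followed at 2.80 with rank 13, Tyms at 2.72 with rank 18 and Uhrf1 at 2.39 with rank 35. Past 2-fold were 12 of the 13 genes that had been lower in BM1st than in P, with Dut at 0.30 as the exception. The other 4 were Mcm4, Rfc2, Fen1 and Pole, of which Pole at 1.10 was closest to the threshold, and Gins2 fell just short with a ratio of 1.00 after rounding. By order of the 3 lines, 36 of 41 genes were lowest in BM1st, where 33.7% of 10936 genes above background on some array were lowest in it. Highest in BM2nd were 27 of the 41, against 34.1% of all genes, and 11 were highest in P, against 31.6% of all genes. The order BM1st, P, BM2nd from low to high was seen in 26 genes and the order BM1st, BM2nd, P in 10. Shares of these orders over all genes were not counted. Gmnn is among the 36, though neither its BM1st nor its P value was above background.

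Other probes of the same genes were read as a check. In BM1st/P, 17 genes had another probe that passed background on either array, and the mean ratio over a gene's other probes was below 0 in 16 of the 17. All 8 of these that were past 2-fold on the brightest probe had the same sign on the others. In BM2nd/P the sign was above 0 in 12 of 17, and in BM2nd/BM1st in 16 of 17. Dut, which was low in both bone lines, read 574 in P, 187 in BM1st and 196 in BM2nd cells on its second probe, a log2 BM2nd/P ratio of -1.55 against -1.07 on the first. The second probe of Mcm10 gave 267 in P, 113 in BM1st and 251 in BM2nd cells, and that of Rrm1 gave 372 in P, 194 in BM1st and 533 in BM2nd cells. Dim second probes of the thymidylate genes had smaller ratios with the same sign. Tk1 gave 189 in P, 108 in BM1st and 271 in BM2nd cells on its second probe, a log2 BM2nd/P ratio of 0.52, within 2-fold. Tyms gave 201 in P, 109.6 in BM1st and 221 in BM2nd cells, a log2 BM1st/P ratio of -0.87. Rfc5 rests on its brightest probe, since the second read 118 in P, 116 in BM1st and 122 in BM2nd cells. Uhrf1 had no second probe above background, and Mcm3 and Mcm5 had 1 probe each. Across the 13 genes with 2 or more probes above background on all arrays, the median range between probes was 0.27 in the log2 BM1st/P ratio, the largest 1.01 in Rfc5. This leaves out Tyms and Tk1, whose second probes were not above background in BM1st cells and differed more. Their log2 BM1st/P ratios were -0.87 and -0.81 there, against -2.44 and -1.83 on the brightest probes.

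**Figure D4:**
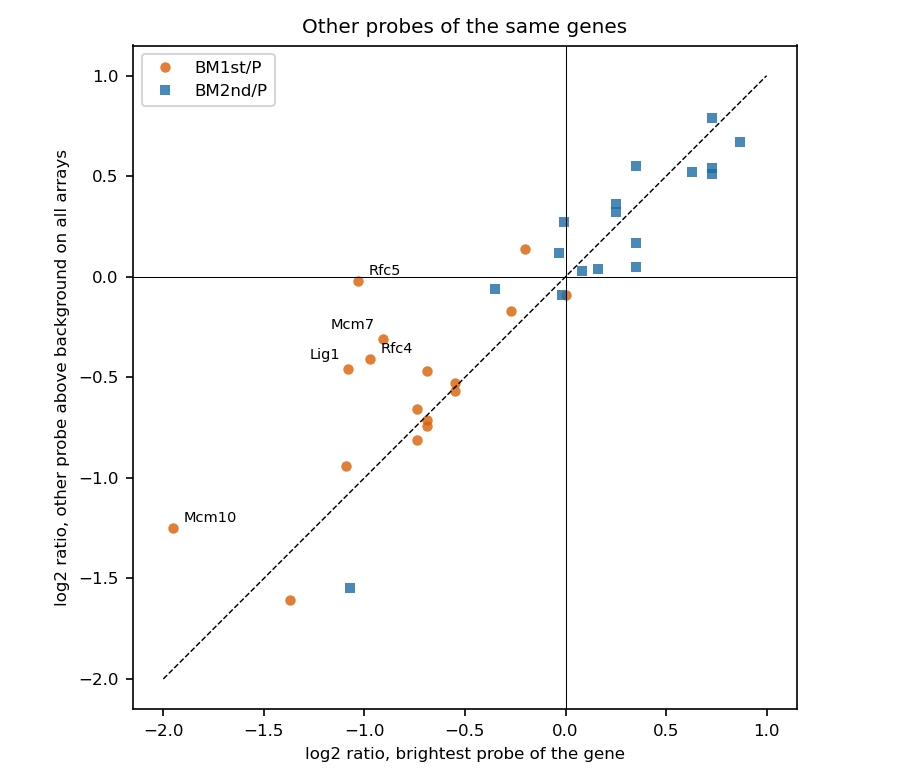
Log2 ratio on the other probes of a gene that were above background on all 3 arrays, against the ratio on its brightest probe, with BM1st/P as orange circles and BM2nd/P as blue squares and the line of equal ratios dashed. Most points lie near the line or between it and 0, with Dut beyond it in both ratios. Of the genes drawn, Rfc5, Lig1, Mcm7, Rfc4 and Mcm10 differ most in BM1st/P, with smaller ratios on the dimmer probe. Tyms and Tk1 are not drawn, as their second probes were not above background in BM1st cells.

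Lists outside the set were read in the same way. Of 35 other replication genes, 32 were tested in BM1st/P, and 4 were lower by more than 2-fold and none higher, with a median of -0.40. The 4 were Recql4 at -1.43, a helicase that acts in origin firing, Timeless at -1.15 and Clspn at -1.02, which protect moving forks, and Asf1b at -1.05, a histone chaperone. Pold4, a small subunit of polymerase delta named here after its value was seen, was above P at 0.89. In BM2nd/P none of 33 was past 2-fold and the median was 0.11. The largest ratios were those of Clspn at 0.73, Rpa3 at 0.57, Chaf1b at 0.56 and Chtf18 at 0.55.

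Nucleotide supply outside the set did not share the pattern of Tyms, Tk1 and ribonucleotide reductase. Of 19 listed genes 18 had a named probe in the values used here. Of 17 tested in BM1st/P none was past 2-fold, and the median was -0.15. Dtymk, the thymidylate kinase next to Tyms in the pathway, came closest at -0.99, with 2651 in P, 1333 in BM1st and 2252 in BM2nd cells. Shmt1 stood at -0.82 and Umps at -0.75, whereas Cad, which starts pyrimidine synthesis, stood at 0.73 with 684 in P, 1135 in BM1st and 610.4 in BM2nd cells. In BM2nd/P the log2 ratio was below 0 in 16 of 18 genes, with a median of -0.44 and none past 2-fold. Lowest were Shmt1 at -0.91, Umps at -0.81, Dhodh at -0.77 and Gart at -0.73. The median of the set in the same comparison was 0.19.

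Control genes of the G1/S transition were spread around 0. Of 26, 22 were tested in BM1st/P with a median of -0.01 and none past 2-fold, with Ccnd1 at -0.68, Cdk4 at -0.56, Rb1 at 0.45 and Cdk2 at -0.44 at the ends. In BM2nd/P, 1 of 21 was higher, the CDK4/6 inhibitor gene Cdkn2c, with 458 in P, 481 in BM1st and 1536 in BM2nd cells. The CDK inhibitor gene Cdkn1a read 4605 in P, 5317 in BM1st and 2874 in BM2nd cells, a log2 BM2nd/P ratio of -0.68. E2f5 stood at -0.82 and Rbl1 at 0.66 in BM2nd/P.

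Mitosis genes had the same shape as the set with larger ratios. Of 20 listed, 18 had a named probe in the values used here, and 13 of 14 tested were lower in BM1st than in P by more than 2-fold, with a median of -1.68. Nusap1 had the lowest ratio, with 1049 in P, 196 in BM1st and 1281 in BM2nd cells, and Birc5 had 1538 in P, 369 in BM1st and 2334 in BM2nd cells. Kif23 read 2162 in P, 526 in BM1st and 2998 in BM2nd cells, and Aurka read 992 in P, 247 in BM1st and 1183 in BM2nd cells. In BM2nd/P none of 14 was past 2-fold, and the median was 0.51, with Plk1 at 0.77, Cdc20 at 0.69, Bub1b at 0.64 and Birc5 at 0.60 as the largest ratios. Of the mitosis genes with a promoter entry 5.6% held an E2F word, 88.9% CCAAT and 72.2% TTTGAA, whereas an E2F word was found in 27.6% of the other replication genes, 36.8% of the G1/S control genes and 5.9% of the nucleotide supply genes. Within the set, the 12 tested genes with an E2F word had a median log2 BM1st/P ratio of -0.84 with 5 lower, and the 21 without had -0.69 with 8 lower, and this difference was not tested. Of 14 common reference genes 12 had a named probe, and their median was -0.05 in BM1st/P over 11 tested and 0.09 in BM2nd/P over 12. The largest ratios were those of B2m at 0.68, Pgk1 at 0.34, Rpl13a at -0.33 and Eef2 at 0.27 in BM1st/P, and of Pgk1 at 0.62, Gapdh at 0.53, Eef2 at -0.32 and B2m at 0.28 in BM2nd/P.

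**Figure D5:**
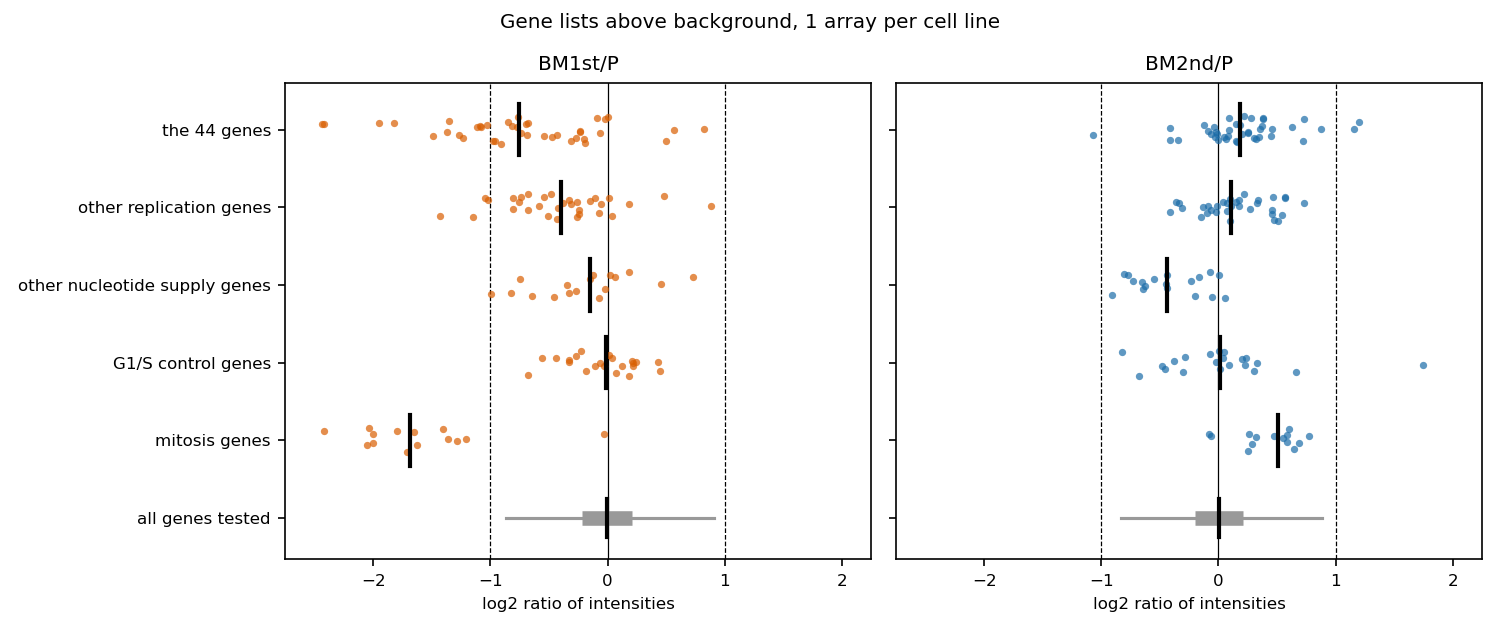
Log2 ratios of the tested genes in each list, BM1st/P on the left and BM2nd/P on the right, 1 point per gene, with the list's median as a black bar. The bottom row gives the median, the quartiles (thick) and the middle 95% (thin) of all genes tested. In BM1st/P the set at -0.75, the other replication genes at -0.40 and the mitosis genes at -1.68 lie left of the other lists, and in BM2nd/P the nucleotide supply genes lie lowest at -0.44.

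Markers of cells that bone lesions can hold were read beside these values. Of 21 leukocyte markers, 18 had a named probe, and 5 were above background in P, 11 in BM1st and 9 in BM2nd cells, with summed intensities of 3117 in P, 3887 in BM1st and 4385 in BM2nd cells. The lysozyme gene Lyz2 read 79.5 in P, 1078 in BM1st and 365 in BM2nd cells, Laptm5 read 90.1 in P, 367 in BM1st and 184 in BM2nd cells, and Fcer1g read 95.4 in P, 255 in BM1st and 128 in BM2nd cells. These 3 were highest in BM1st cells. Of markers given here after their values were seen, Cd14 read 294 in P, 501 in BM1st and 363 in BM2nd cells. In the order P, BM1st and BM2nd, Adgre1 read 92, 131 and 93.9, Csf1r 115, 128 and 116, and Spi1 105, 121 and 98.1. In the same order Elane read 99.3, 112 and 117, and Cd74 109.6, 99.5 and 109, so neither was highest in BM1st cells. Ly6c1 read 1242 in P, 269 in BM1st and 1999 in BM2nd cells. The order of the leukocyte sums rests on Ly6c1, without which the sum was highest in BM1st cells. Coro1a read 113 in P, 133 in BM1st and 173 in BM2nd cells. The pan-leukocyte gene Ptprc, named after its values were seen, read 102 in P, 111 in BM1st and 104 in BM2nd cells, above background in BM1st cells. Tyrobp, Itgam, Cd3e, S100a8, S100a9 and Mpo were not above background on any array. Erythroid and progenitor markers, with 9 of 10 on a named probe, were above background for 1 gene in P, 1 in BM1st and 2 in BM2nd cells, and their sums were 869 in P, 872 in BM1st and 898 in BM2nd cells. Epor at 119 in P, 104 in BM1st and 116 in BM2nd cells, Cd34 at 104 in P, 114 in BM1st and 107 in BM2nd cells, and Hbb-bt at 107 in P, 91.1 in BM1st and 109 in BM2nd cells stayed close to background. Hba-a1, Alas2, Klf1, Gata1, Kit and Tal1 were not above background on any array. Of 15 stroma markers 14 had a named probe, and 8 were above background in P, 8 in BM1st and 10 in BM2nd cells, with sums of 4091 in P, 11211 in BM1st and 19361 in BM2nd cells. These genes are not read only in the bone lines. Col3a1, given here after its values were seen, read 1107 in P, 833 in BM1st and 1946 in BM2nd cells. Lum read 198 in P, 1742 in BM1st and 6133 in BM2nd cells. The paper reported lumican protein in the cultured lines and in their medium, with more in BM2nd than in parental cells. Whether the stroma markers came from tumour cells or from other cells was not tested. Dcn read 1027 in P, 6259 in BM1st and 6174 in BM2nd cells, and Dpt read 142 in P, 418 in BM1st and 2213 in BM2nd cells. Pdgfra read 258 in P, 851 in BM1st and 1068 in BM2nd cells. Col1a1, not above background in P cells, read 96.0 in P, 119.9 in BM1st and 412 in BM2nd cells. Of 9 stroma markers tested in BM1st/P, 4 were higher by more than 2-fold, namely Lum, Dcn, Dpt and Pdgfra, and 1 was lower, namely Fbln1, given here after its values were seen, with 544 in P, 271 in BM1st and 601 in BM2nd cells. In BM2nd/P 5 of 11 were higher, the same 4 and Col1a1, and none was lower. Pdgfrb, Thy1 and the osteoblast gene Bglap were not above background on any array. The osteoblast gene Sp7, given here after its values were seen, was above background only in BM2nd cells. It read 103 in P, 101 in BM1st and 197 in BM2nd cells. The part of other cells in the ratios of the replication genes was not tested.

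The lung carcinoma label was checked against 12 epithelial markers, of which 4 were above background in P, 3 in BM1st and 5 in BM2nd cells. The keratin gene Krt8 read 1381 in P, 997 in BM1st and 2509 in BM2nd cells, Krt18 read 2025 in P, 2280 in BM1st and 1274 in BM2nd cells, and Cdh1 was dim at 121 in P, 116 in BM1st and 125 in BM2nd cells, as was Krt7 at 115 in P, 99.6 in BM1st and 107 in BM2nd cells. Epcam, Krt19, Sftpc, Sftpb, Nkx2-1, Scgb1a1 and Cldn4 were not above background on any array, so defining markers of lung epithelium were not detected in any of the 3 lines at this background level.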

How the data were processed

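Total RNA of LLC/luc P, BM1st and BM2nd cells was measured on 3 Illumina mouse bead arrays, 1 for every line. The authors deposited linear intensities, and the submitters' processing notes name GenomeStudio 2011.1. Its normalization setting was not given in the sources used here. Sorted from low to high, the values of any pair of arrays come within 0.274 of each other, which is what quantile normalization leaves, and they run from 60.2 to 56032 without background subtraction. The platform annotation pairs 34885 of 45281 probes with 1 gene, 18 with several, which were not named, and 10378 with none. Python 3.11.15 with numpy 2.4.6 and pandas 2.3.3 gave the log2 ratios, matplotlib 3.10.9 the plots, and the counting was tested on simulated data. A difference counted when it passed 2-fold, as in the study's methods. Precision is limited by the number of arrays.

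The 44 genes and the 9 comparison lists of 172 genes, 162 with a named probe, were chosen with earlier results of these data known. Named in full were, per role, the 3 genes with the largest BM1st/P difference, those past 2-fold in BM2nd/P and those not above background. From each other list came the 4 largest differences in each comparison with P and the markers not above background. Alternatives varied the centring, the background level and filter, the probe and the threshold. 1 gene of the nucleotide supply list is not reported here, and other measurements of the study are not analysed here.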

Additional observations from a re-analysis of the deposited data

How the results depend on the processing

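No paired analysis was possible because each line has 1 array and no replicate numbers, and no replicate could be left out. Every gene called on the brightest probe kept its sign under the 9 other normalizations, filters and probe choices that gave it a value. For most of these that outcome was fixed. The background filters reuse the same ratio, the centring shifts were far smaller than a ratio of 1, and background subtraction widens ratios. Only the mean over probes and the second probe could have changed a sign. Second probes gave values for 8 of the 13 genes in BM1st/P, 2 of 3 in BM2nd/P and 9 of 16 in BM2nd/BM1st. Calls in BM1st/P numbered 13, and 21 after background subtraction (20 lower, and Gins3 higher), 3 of 17 on the second brightest probe, 25 at 1.5-fold (24 lower, 1 higher) and 4 at a log2 ratio of 1.5. Of the 13, Rfc5, Lig1, Rrm1, Tyms and Tk1 were within 2-fold on the second probe. With reference genes as the centre, Cdc6, Rfc5, Lig1 and Rrm1 were no longer past 2-fold, and with the mean over probes Rfc5, Lig1 and Tk1. The BM1st/P median of -0.75 became -0.61 with reference genes, -1.03 after background subtraction and -0.57 on the second probe. Calls over all genes in BM1st/P numbered 212 higher and 186 lower, and 849 higher and 832 lower after background subtraction. Calls in BM2nd/P numbered 3, and 1 on the second probe, 7 at 1.5-fold (6 higher, 1 lower) and 0 at 1.5 on the log2 scale. Over all genes, calls in BM2nd/P numbered 194 higher and 162 lower, and 36 higher and 57 lower on the second probe. Centring each array on its own probes above background, chosen after seeing the data, gave a median of 0.33 in place of 0.19 and 3 genes higher with none lower, Dut no longer past 2-fold. Over all genes 285 were then higher and 106 lower. With the mean over probes Tk1 was no longer past 2-fold in BM2nd/P. In BM2nd/BM1st Mcm4 and Pole were not with reference genes, nor Mcm4 and Rfc5 with the mean over probes. Calls in BM2nd/BM1st numbered 16, all higher, and 9 on the second probe, 26 at 1.5-fold (24 higher, and Cdt1 and Gins3 lower) and 9 at 1.5 on the log2 scale. Over all genes, calls in BM2nd/BM1st numbered 318 higher and 188 lower, and 80 higher and 51 lower on the second probe. Shares of all genes in BM2nd/BM1st at 1.5-fold and at 1.5 on the log2 scale are not given here. The BM2nd/BM1st median of the set, 0.86, became 0.64 with reference genes or the mean of probes and 0.65 with no filter. It became 1.21 after background subtraction, 1.01 on the second probe and 1.02 with each array's own centre. The median of all genes moved to 0.14, -0.07 and -0.23 with reference genes in BM1st/P, BM2nd/P and BM2nd/BM1st, and to -0.03, 0.15 and 0.15 with each array's own centre. Of calls over all genes, 53.3% were higher in BM1st/P and 68.9% with reference genes. In BM2nd/P 54.5% were higher, 72.9% with each array's own centre and 38.7% on the second probe. In BM2nd/BM1st 62.8% were higher, 36.3% with reference genes and 80.2% with each array's own centre. The cause of these differences was not tested. Background subtraction moved the BM1st/P ratio by more than 1.5-fold in 11 genes: Cdc6, Mcm10, Gins3, Prim1, Pole, Rrm2, Tyms, Tk1, Dut, Ccne1 and Ccne2.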
